A study of Mus musculus with 6 samples.

Results

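The clock output genes Dbp, Tef, Hlf, Ciart and Wee1, the period genes Per1, Per2 and Per3 and the REV-ERB genes Nr1d1 and Nr1d2 were examined as 1 group of 10 genes, out of 54232 genes in a table of nuclear RNA from cardiomyocyte nuclei of mouse left ventricles. They were selected by name, after earlier results of these same libraries had shown several of them with higher values in UtyGT than in WT. The difference between the groups is therefore a description of these genes here and carries no weight as a test. All 10 were measured well above the minimum used for testing, with at least 122 reads in every library.

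There were 3 UtyGT libraries and 3 WT libraries, each labelled with the number 11, 15 or 31. The UtyGT mice carried the gene trap Uty Gt(XS0378)Wtsi, which sits in the fourth intron of Uty on the Y chromosome and came from ES cells of strain 129P2/OlaHsd, and the line was bred onto C57BL/6J. The WT mice descended from 129P2/OlaHsd males bred onto C57BL/6J in the same way, so that both groups had a Y chromosome of 129P2 origin on a C57BL/6J background, and both were adult males kept without any treatment named in the sources. The trap was in the germ line and so in every cell type, and the strain rests on 1 trapped ES cell line. The hour of day at which hearts were taken, the number of animals behind a library and the day on which each number was processed are not given in the sources used here. Per the paper, nuclei for ATAC-Seq were prepared on 3 different days, and this RNA came from part of that material. Each library came from 150000 nuclei sorted with an antibody to PCM1, a centrosomal protein that collects around the nuclei of cardiomyocytes.

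In nearly every mammalian cell, the protein CLOCK and its partner BMAL1, which Arntl encodes, bind E-boxes and switch on the period, cryptochrome, REV-ERB and PAR bZIP genes. The PER proteins, together with the cryptochromes, then shut off CLOCK and BMAL1, and the REV-ERB proteins repress Arntl, Npas2 and Nfil3 through sites that they share with the ROR activators. Hence the genes of the E-box arm and Arntl rise and fall in opposite parts of the day. Within the E-box arm of mouse peripheral tissues, Nr1d1 has its peak earlier than Dbp, and Dbp earlier than Per2. In the heart this clock times metabolic genes and ion channels over the day.

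The libraries held between 18204752 and 23252887 reads in genes. Values are normalised read counts, that is, reads per gene divided by 1 scaling factor per library. Uty itself had between 14.1 and 22.1 in UtyGT, against 1212 to 1332 in WT, so that all 6 libraries matched their labels. The 6 cardiomyocyte markers, among them Ttn, Myh6 and Tnnt2, summed to between 1928228 and 2214976 in UtyGT and between 1954803 and 2361079 in WT. None of the 30 markers of 7 cell types, these 6 among them, was at 0 in any library. Whether reads of the other markers came from other cell types was not tested. Both number 15 libraries stood apart from the other 4 on the principal component that took up 73.3% of the variance. The 4 leukocyte markers summed to 366 in UtyGT 15 and 805 in WT 15, against 3958 to 10530 in the other 4 libraries. Results that lean on the number 15 libraries are therefore also given without them.

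Promoter sequences are shown first, because E-boxes and D-boxes are the sites through which the clock proteins and the PAR bZIP factors act. RefSeq windows on build GRCm38.p6, running 250 bases upstream to 50 bases downstream of a transcription start, were found for 8 of the 10 genes, with 10 windows in all. Per2 and Wee1 are named only. The motifs searched on both strands were the E-box (CACGTG), the E′-box (CACGTT), the D-box (TTATGTAA or TTACGTAA), the cyclic AMP response element (TGACGTCA) and the RORE, and no motif overlapped another in these windows. In each sequence, printed 5′ to 3′ on the strand of the gene, capitals mark the motif. The E-boxes are shown in the windows of Ciart (chr3:95882179-95882478, minus strand), Per1 (chr11:69098699-69098998, plus strand) and Tef (chr15:81802423-81802722, plus strand), and the second window of Tef, which also holds 1, is not printed. Nr1d1 (chr11:98775328-98775627, minus strand) is shown for its E′-box, which reads AACGTG on the strand of the gene, and Per3 (chr4:151044616-151044915, minus strand) for its D-boxes.
Ciart: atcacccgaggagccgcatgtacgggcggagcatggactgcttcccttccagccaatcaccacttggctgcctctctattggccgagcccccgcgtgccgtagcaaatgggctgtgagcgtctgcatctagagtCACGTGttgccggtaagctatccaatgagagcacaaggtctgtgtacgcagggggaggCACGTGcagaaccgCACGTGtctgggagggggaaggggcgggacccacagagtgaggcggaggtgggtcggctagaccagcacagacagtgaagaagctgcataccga
Per1: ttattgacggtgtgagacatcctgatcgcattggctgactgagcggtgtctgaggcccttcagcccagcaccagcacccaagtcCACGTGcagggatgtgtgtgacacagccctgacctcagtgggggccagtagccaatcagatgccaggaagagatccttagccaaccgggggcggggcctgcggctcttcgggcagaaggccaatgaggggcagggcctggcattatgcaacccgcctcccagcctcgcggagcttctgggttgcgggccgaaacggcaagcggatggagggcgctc
Tef: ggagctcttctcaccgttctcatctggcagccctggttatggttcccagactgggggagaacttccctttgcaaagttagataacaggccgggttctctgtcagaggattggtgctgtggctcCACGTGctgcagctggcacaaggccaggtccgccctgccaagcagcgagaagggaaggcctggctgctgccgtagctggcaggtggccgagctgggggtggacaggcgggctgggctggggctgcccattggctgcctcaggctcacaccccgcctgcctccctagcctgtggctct
Nr1d1: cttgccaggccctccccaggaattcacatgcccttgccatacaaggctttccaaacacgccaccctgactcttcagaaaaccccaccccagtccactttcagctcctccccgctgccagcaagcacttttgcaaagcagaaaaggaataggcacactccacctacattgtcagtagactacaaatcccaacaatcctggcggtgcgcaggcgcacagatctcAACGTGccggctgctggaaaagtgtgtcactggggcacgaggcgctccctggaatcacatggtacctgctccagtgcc
Per3: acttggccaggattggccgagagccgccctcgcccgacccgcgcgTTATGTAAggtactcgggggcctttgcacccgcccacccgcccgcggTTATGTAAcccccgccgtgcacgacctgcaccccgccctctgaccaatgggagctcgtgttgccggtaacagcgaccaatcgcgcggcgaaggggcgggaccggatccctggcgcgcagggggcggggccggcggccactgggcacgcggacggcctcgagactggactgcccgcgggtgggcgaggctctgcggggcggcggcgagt

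The Ciart window held 3 E-boxes, whose first bases lay at −116, −58 and −44 from the transcription start. Per1 had 1 E-box at −166 in this window and no motif in its other window, and Tef had 1 E-box at −127 here and 1 at −138 in its second window. An E-box was thus found in 3 of the 8 genes, against 8.09% of 27025 genes with a window. The E′-box of Nr1d1 lay at −28 and was found in 1 of the 8 genes, against 5.44% of all. Per3 held 2 D-boxes, at −205 and −158, a motif present in 1 of the 8 genes and 1.23% of all genes. Hlf had a cyclic AMP response element at −9, found in 2.03% of all genes, and a RORE was found in 0 of the 8, against 0.459% of all. The windows of Dbp and Nr1d2 contained none of these letters. A match in these windows is a description of the letters and says nothing on binding.

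The comparison of UtyGT with WT described how these 10 genes stood when Uty carried the trap. All 10 had a log2 fold change of UtyGT over WT above 0, between 0.15 and 0.57, with a median of 0.24, whereas 48.6% of the 16202 genes tested were above 0 and their median was −0.01. Fold changes are on the scale of log2(normalised read count + 1). In 4 of the 10, Dbp, Hlf, Nr1d1 and Wee1, every UtyGT library lay above every WT library, against 3.1% of all genes tested, and the groups overlapped in the other 6. By limma, 0 of the 10 were called at an adjusted p of 0.05 over all genes (adjusted p = 1.00 for each), and 2 of the 10 had an unadjusted p below 0.05, against 1.2% of all genes. The same fit called 0% of all genes higher and 0.00617% lower, which was Uty alone. edgeR and DESeq2 likewise called 0 of the 10. Since the genes were selected on this contrast, nothing is read from these counts. In bulk libraries, fewer cells of a type and less RNA per cell cannot be told apart.

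**Figure D1:**
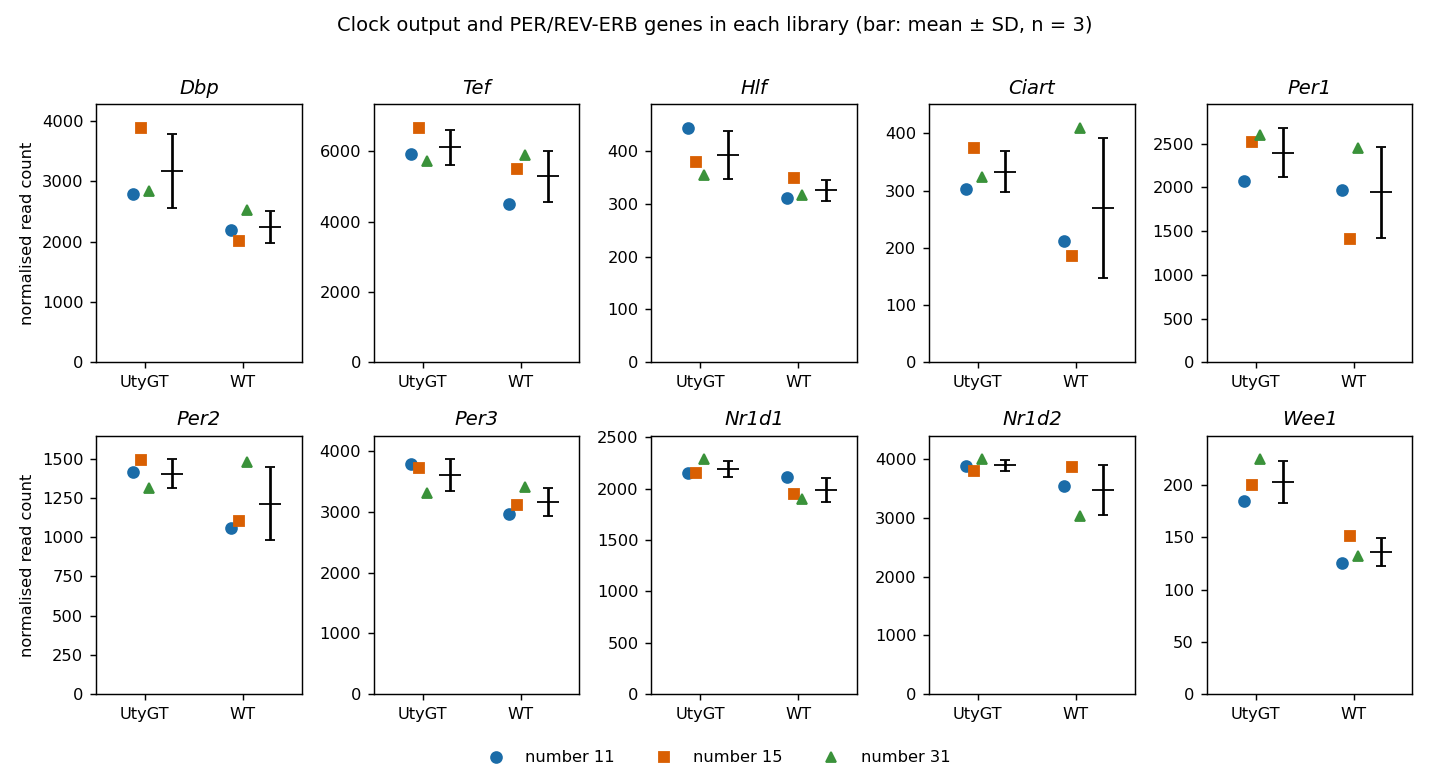
Normalised read count (vertical axes, from 0) of each of the 10 genes in the 3 UtyGT and 3 WT libraries, with a symbol for each number 11, 15 and 31 and a bar for the mean ± SD of each group. The groups are separate for Dbp, Hlf, Nr1d1 and Wee1, and WT 31 stands above the other WT libraries for Ciart, Per1 and Per2.

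Wee1, the kinase that holds CDK1 inactive before mitosis and whose transcription follows the clock in mouse liver, had the highest log2 fold change of the 10 with all 6 libraries. Wee1 (ENSMUSG00000031016, GRCm38, plus strand of chromosome 7, 110122046 to 110143286) had a normalised read count of 185, 200 and 225 in UtyGT 11, 15 and 31, against 126, 151 and 132 in WT 11, 15 and 31. Every UtyGT library was above every WT library. Its log2 fold change was 0.57 (SE 0.14, 95% interval 0.24 to 0.91), a fold of 1.49, and the pairs of equal number gave 0.56, 0.40 and 0.77 for 11, 15 and 31. With between 122 and 215 reads per library it was also among the least abundant of the 10. Without WT 31 the log2 fold change of Wee1 was 0.55, below those of Ciart (0.74) and Dbp (0.58).

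Dbp, Tef and Hlf encode the PAR bZIP factors, which bind D-boxes and carry the rhythm to metabolic genes. Dbp (ENSMUSG00000059824, plus strand of chromosome 7, 45705088 to 45710203) had 2788, 3888 and 2848 in UtyGT 11, 15 and 31, against 2195, 2009 and 2535 in WT 11, 15 and 31. UtyGT 15 was the highest library and WT 15 the lowest, so that the pair of number 15 differed by 0.95 on the log2 scale, against 0.34 for number 11 and 0.17 for number 31. The log2 fold change was 0.49 (SE 0.15, 95% interval 0.13 to 0.85). In the separately normalised table without the number 15 libraries it was 0.26. The annotated exons of Dbp share 539 bases, 18.0% of its exon bases, with Sphk2 on the opposite strand. Whether reads were counted by strand is not given in the sources used here, so that reads of both genes may be mixed. Sphk2 had between 559 and 652 in UtyGT and between 505 and 613 in WT, so that the groups overlapped there.

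Tef (ENSMUSG00000022389, plus strand of chromosome 15, 81802421 to 81826863) had the highest counts of the 10, with 5939, 6672 and 5736 in UtyGT 11, 15 and 31 and 4497, 5490 and 5890 in WT 11, 15 and 31. WT 31 lay above UtyGT 31, UtyGT 15 was the highest library and WT 11 the lowest. The log2 fold change of Tef was 0.21 (SE 0.12, 95% interval −0.07 to 0.50), or 0.10 without WT 11. Hlf (ENSMUSG00000003949, minus strand of chromosome 11, 90336536 to 90390895) had 443, 378 and 354 in UtyGT 11, 15 and 31, against 311, 348 and 316 in WT 11, 15 and 31. The groups of Hlf were separate by a narrow margin, 354 in UtyGT 31 against 348 in WT 15, with a log2 fold change of 0.26 (SE 0.12, 95% interval −0.01 to 0.54).

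Ciart encodes CHRONO, a repressor of CLOCK and BMAL1 whose promoter carried the 3 E-boxes shown above. Ciart (ENSMUSG00000038550, minus strand of chromosome 3, 95878503 to 95882251) had 303, 374 and 323 in UtyGT 11, 15 and 31, against 212, 186 and 410 in WT 11, 15 and 31. WT 31 was the highest of all 6 libraries, and WT 11 and WT 15 were the lowest. The highest WT library had 2.20 times the count of the lowest, against 1.23 times among the UtyGT libraries. The log2 fold change of 0.39 (SE 0.29, 95% interval −0.29 to 1.08) thus depended on single libraries: it was 0.74 without WT 31, 0.17 without WT 15 and 0.09 in the table without the number 15 libraries. The pair values were 0.51 and 1.00 for numbers 11 and 15, and −0.34 for number 31.

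Per1 and Per2 encode the PER repressors, and Per3 their relative, which is not needed for rhythms in mice. Per1 (ENSMUSG00000020893, plus strand of chromosome 11, 69095217 to 69109960) had 2074, 2523 and 2596 in UtyGT 11, 15 and 31, against 1968, 1411 and 2448 in WT 11, 15 and 31. WT 15 alone was far below the rest. Without WT 15 the log2 fold change of Per1 was 0.12, against 0.33 with it (SE 0.20, 95% interval −0.14 to 0.81), and the pairs gave 0.08, 0.84 and 0.08 for 11, 15 and 31. Like Ciart, Per1 varied more among the WT libraries, 1.74 times from lowest to highest, than among the UtyGT libraries, 1.25 times.

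Per2 (ENSMUSG00000055866, minus strand of chromosome 1, 91415982 to 91459324) had 1414, 1494 and 1313 in UtyGT 11, 15 and 31, against 1061, 1103 and 1482 in WT 11, 15 and 31. WT 31 lay among the UtyGT libraries and the other WT libraries below all of them. The log2 fold change of Per2 was 0.23 (SE 0.14, 95% interval −0.10 to 0.55), with −0.17 between the libraries of number 31, and it was 0.14 without WT 11 and 0.38 without WT 31. Per3 (ENSMUSG00000028957, minus strand of chromosome 4, 151003652 to 151044665) had 3783, 3729 and 3312 in UtyGT 11, 15 and 31, against 2964, 3121 and 3405 in WT 11, 15 and 31. The same order of WT libraries as in Per2 was seen, at a smaller span, and the log2 fold change of Per3 was 0.19 (SE 0.09, 95% interval −0.02 to 0.40). Per3 lies within the span of Camta1 on the same strand, with 0 shared exon bases. Camta1 had 3470, 3494 and 2890 in UtyGT 11, 15 and 31, against 2693, 3058 and 3209 in WT 11, 15 and 31. It was thus also lower in UtyGT 31 than in WT 31. Whether unspliced Camta1 RNA was counted as Per3 was not tested.

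Nr1d1 and Nr1d2 encode REV-ERBα and REV-ERBβ, the heme-binding nuclear receptors that repress Arntl. Nr1d1 (ENSMUSG00000020889, minus strand of chromosome 11, 98767932 to 98775333) had 2150, 2153 and 2286 in UtyGT 11, 15 and 31, against 2116, 1949 and 1897 in WT 11, 15 and 31. It was the steadiest of the 10, with 1.21 times between its highest and lowest library, and its groups were separate, with a log2 fold change of 0.15 (SE 0.07, 95% interval −0.03 to 0.32). Its exons share 263 bases, 8.55% of its exon bases, with Thra on the opposite strand, which had between 1799 and 1880 in UtyGT and between 1663 and 2036 in WT. Nr1d2 (ENSMUSG00000021775, minus strand of chromosome 14, 18204054 to 18239127) had 3880, 3804 and 3997 in UtyGT 11, 15 and 31, against 3544, 3870 and 3025 in WT 11, 15 and 31. WT 31 was the lowest library for both REV-ERB genes, whereas it was the highest WT library for Ciart and Per2, and the log2 fold change of Nr1d2 was 0.17 (SE 0.10, 95% interval −0.07 to 0.41), or 0.07 without WT 31.

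Levels of different genes were compared per 1000 bases of annotated exon, as means of the 6 libraries. Dbp was highest with 906 normalised reads per 1000 exon bases, ahead of Tef (725), Nr1d2 (682) and Nr1d1 (680), and the ranges of these 4 overlapped from each to the next. Per1 (385) and Per3 (352) overlapped each other, as did Per2 (224) and Ciart (133). Hlf (53.6) and Wee1 (49.7) were the lowest and overlapped. The ranges were separate between Nr1d1 and Per1, between Per3 and Per2 and between Ciart and Hlf. The D-box factors were therefore unequal in these nuclei, with Dbp and Tef far above Hlf.

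**Figure D2:**
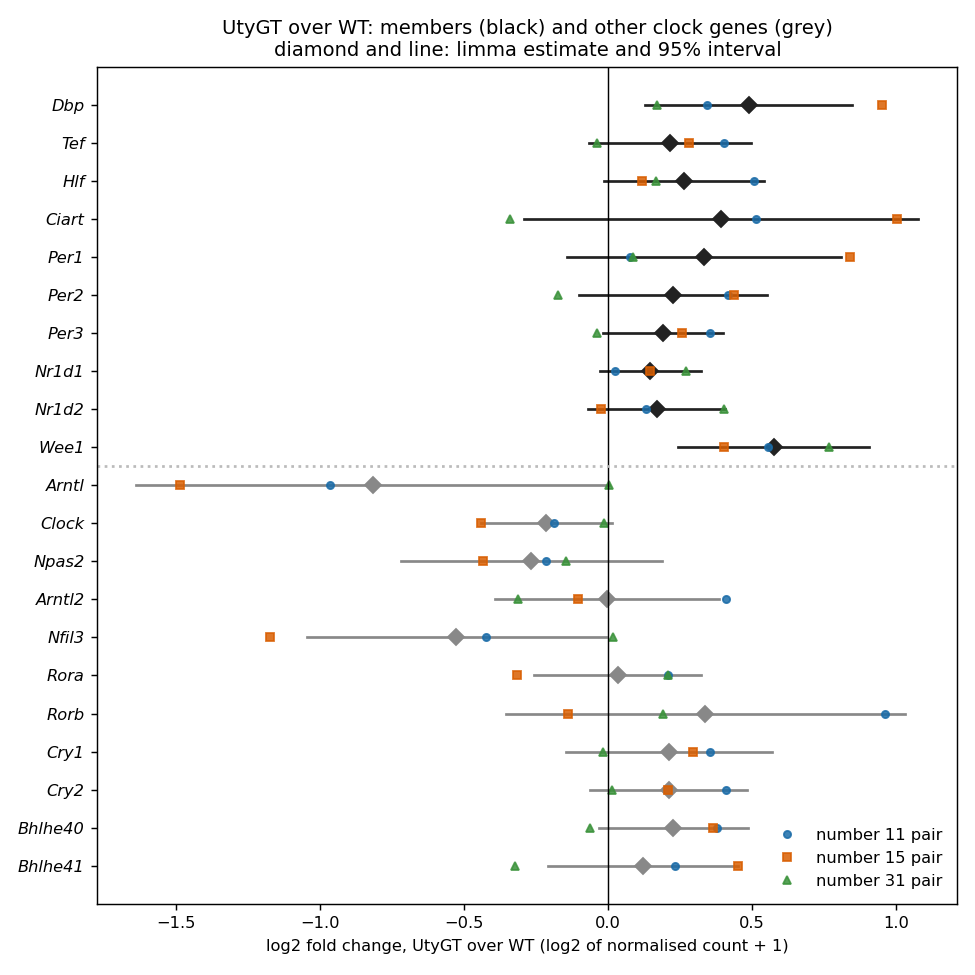
Log2 fold change of UtyGT over WT (horizontal axis) for the 10 genes (black) and 11 other clock genes (grey), with the limma estimate as a diamond, its 95% interval as a line and the 3 pairs of equal number as coloured symbols. All 10 estimates lie between 0.15 and 0.57, while Arntl, Nfil3, Npas2 and Clock lie below 0. The symbols of number 31 lie below 0 for Tef, Ciart, Per2 and Per3.

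The difference was unequal over the 3 pairs of libraries of equal number. For 11 and 31 this pairing is not settled by correlations over genes. With number 11, 10 of the 10 genes were higher in UtyGT, with a median of 0.38, against 48.0% of all genes tested. With number 15 it was 9 of 10, with a median of 0.34, against 47.4% of all genes. With number 31 it was 6 of 10, with a median of 0.13, against 53.1% of all genes, and Tef, Ciart, Per2 and Per3 were lower in UtyGT 31 than in WT 31. Higher values in all 3 pairs were seen in 5 of the 10, namely Dbp, Hlf, Per1, Nr1d1 and Wee1, and in 8.51% of all genes.

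Seen by library, the 10 genes did not move as 1 block. Values were centred on each gene's mean of log2(normalised read count + 1) over the 6 libraries and averaged over the 10 genes. The average was 0.11, 0.22 and 0.12 in UtyGT 11, 15 and 31, against −0.23, −0.22 and −0.0022 in WT 11, 15 and 31. UtyGT 15 was above the mean in 10 of the 10 genes, and WT 11 and WT 15 in 1 each. WT 31 was above the mean in 5 of 10, namely Tef, Ciart, Per1, Per2 and Per3. It was the highest WT library for those 5 and for Dbp, and the lowest WT library for Nr1d1 and Nr1d2. Without WT 31, every UtyGT library exceeded both other WT libraries in 9 of the 10 genes, all but Nr1d2, against 7.18% of all genes. Without both number 15 libraries the count was 5 of 10, against 15.3% of all genes. The highest of the 3 libraries stood further above the lowest in WT than in UtyGT for 7 of the 10 genes, against 57.8% of all genes tested.

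**Figure D3:**
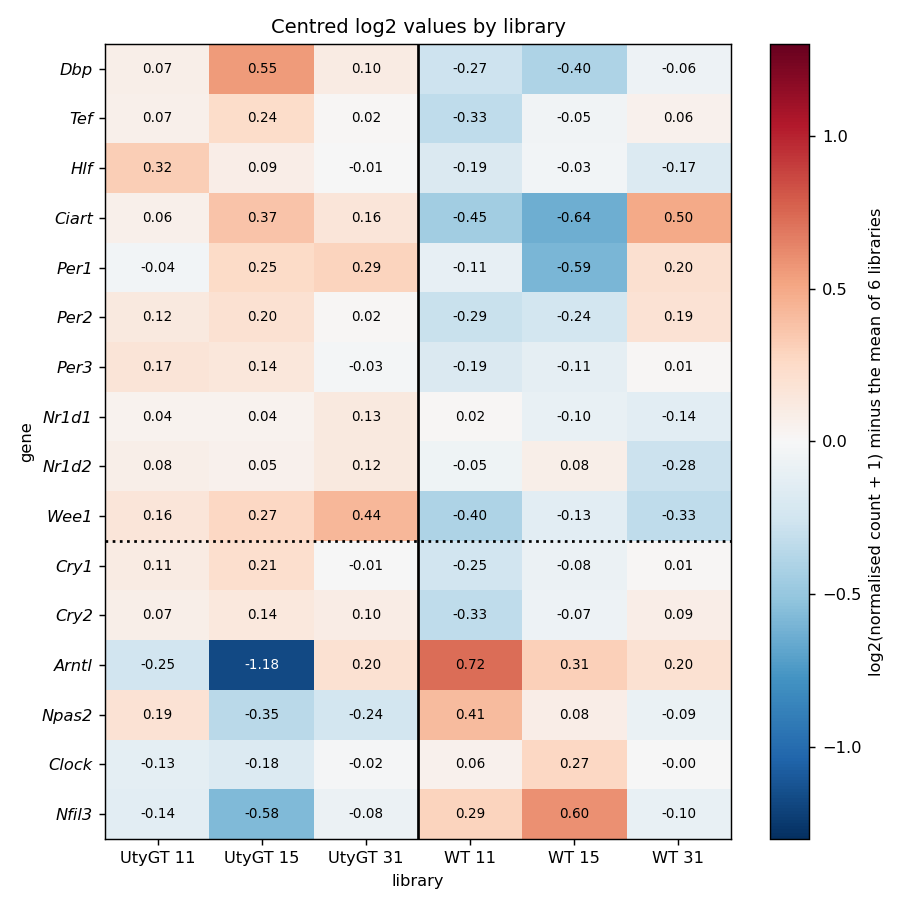
Heat map of log2(normalised read count + 1) minus the mean of the 6 libraries, for the 10 genes above the dotted line and 6 other clock genes under it (rows), in the UtyGT and WT libraries (columns), with red for above the mean and blue for below. Dbp in UtyGT 15 reaches 0.55, Ciart in WT 31 reaches 0.50, and Arntl falls to −1.18 in UtyGT 15.

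The activators, the other side of the loop, were taken from a list of 4 genes, and 4 of 4 were below 0 with a median of −0.24. It was 3 of 4 with TMM or quantile scaling, and when UtyGT 15, UtyGT 31, WT 15 or WT 31 was left out. The table without the number 15 libraries also gave 3 of 4, with a median of −0.14. In each of these settings Arntl2 was above 0, at no more than 0.09. Arntl had a normalised read count of 162, 84.5 and 221 in UtyGT 11, 15 and 31, against 318, 239 and 220 in WT 11, 15 and 31. UtyGT 15 was far below the rest and WT 11 above them, while both libraries of number 31 were alike. The log2 fold change of Arntl was −0.82 (SE 0.35), and the pairs gave −0.97, −1.49 and 0.0011 for 11, 15 and 31. In the table without the number 15 libraries it was −0.48 (SE 0.24). Clock had 1027, 992 and 1108 in UtyGT 11, 15 and 31, against 1169, 1349 and 1118 in WT 11, 15 and 31, a log2 fold change of −0.21 (SE 0.10), and was the only one of the other clock genes with every UtyGT library below every WT library, which held for 2.32% of all genes tested. Npas2, a relative of Clock, had 310, 212 and 230 in UtyGT 11, 15 and 31, against 361, 288 and 255 in WT 11, 15 and 31, with a log2 fold change of −0.27 (SE 0.19). Without the number 15 libraries Clock was at −0.09 (SE 0.11) and Npas2 at −0.18 (SE 0.23). Arntl2, a relative of Arntl, was at −0.0027 (SE 0.16), a value whose sign changed with the setting.

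Nfil3 encodes E4BP4, a repressor that competes with the PAR bZIP factors for D-boxes and that REV-ERB represses. It had 184, 135 and 191 in UtyGT 11, 15 and 31, against 248, 307 and 189 in WT 11, 15 and 31, with a log2 fold change of −0.53 (SE 0.22) and pairs of −0.43, −1.18 and 0.02. In the table without the number 15 libraries the log2 fold change of Nfil3 was −0.20 (SE 0.19). The values thus resembled those of Arntl, with the gap at number 15 the widest and none at number 31. Rora (0.03) and Rorb (0.34), which encode ROR activators, were above 0, with Rorb at no more than 48.4 in any library.

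Among the other repressors and modifiers of the loop, 8 of the 10 genes tested were above 0, against 48.6% of all genes tested. The median of the 10 was 0.07, and edgeR and DESeq2 each put 6 of the 10 above 0. Fbxl21, at no more than 12.2 in any library, was below the minimum for testing. Cry1, a partner of PER, had 118, 127 and 109 in UtyGT 11, 15 and 31, against 91.9, 103 and 110 in WT 11, 15 and 31, with a log2 fold change of 0.21 (SE 0.15). Cry2 (0.21), Bhlhe40 (0.23) and Bhlhe41 (0.12), which encode repressors acting at E-boxes or on the proteins bound there, had like values. The casein kinases Csnk1d (−0.01) and Csnk1e (0.02), which phosphorylate PER, were near 0, as were Btrc (0.0004) and Fbxw11 (0.0030). Timeless had the largest change of this list in size, −0.44 (SE 0.52), with no more than 70.3 in any library. Over all 18 other clock genes tested, 11 were above 0 by limma, against 8 by edgeR and by DESeq2, with several genes close to 0. By limma, 0 of the 18 were called in either direction, and 1, Nfil3, had an unadjusted p below 0.05, against 1.2% of all genes. By limma, Nfil3 was no longer below 0.05 when UtyGT 11, UtyGT 15, WT 11 or WT 15 was left out. The same held without both number 15 libraries and with quantile scaling. It stayed below 0.05 without UtyGT 31 or without WT 31. edgeR and DESeq2 called 0 of these genes as well.

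Of 8 genes outside the loop that are known to follow the clock in mouse tissues, 6 were above 0, against 48.6% of all genes tested. The median of the 8 was 0.17, and 0 of the 8 were called by limma, edgeR or DESeq2. Usp2, which encodes a deubiquitinase, was at 0.25 (SE 0.10), Tcap, which encodes the sarcomere protein telethonin, at 0.33 (SE 0.11), and Dgat2, for an enzyme of triglyceride synthesis, at 0.27 (SE 0.09), and these 3 of the 8 had an unadjusted p below 0.05 by limma, against 1.2% of all genes. Without UtyGT 15 it was 0 of the 8, against 0.722% of all genes. Without WT 15 it was 3 of the 8 (Tcap, Dgat2 and Klf15), against 3.83% of all genes. In the table without the number 15 libraries it was 2 of the 8 (Tcap and Dgat2), against 3.07%. In 2 of the 8, Tcap and Dgat2, every UtyGT library lay above every WT library, against 3.1% of all genes. Klf15, a factor that sets a rhythm in cardiac ion channels, was at 0.16 (SE 0.15) and Kcnip2, a target of Klf15 in mouse heart that encodes a subunit of a potassium channel, at 0.19 (SE 0.14). Tspan4, for a tetraspanin, was at 0.13 (SE 0.18), and at −0.09 without the number 15 libraries. Those below 0 were Cdkn1a, for an inhibitor of cyclin-dependent kinases, at −0.31 (SE 0.32), and Tsc22d3, for the glucocorticoid-induced protein GILZ, at −0.09 (SE 0.20).

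Because the 2 sides of the loop are set against each other, their distance within 1 library hardly depends on the scaling of that library. The measure is built on genes selected on this same contrast, so that its gap between the groups is a description. The average of the 10 genes minus Arntl, in log2 units, was 3.14, 4.19 and 2.72 in UtyGT 11, 15 and 31, against 1.84, 2.26 and 2.59 in WT 11, 15 and 31. Every UtyGT library was above every WT library, by 0.13 between UtyGT 31 and WT 31 and by 1.93 between UtyGT 15 and WT 15. The difference of the group means was 1.12, and it was 0.71 in the table without the number 15 libraries. Dbp minus Arntl gave 4.10, 5.51 and 3.68 in UtyGT 11, 15 and 31, against 2.78, 3.07 and 3.52 in WT 11, 15 and 31. Its group means differed by 0.74 in the table without the number 15 libraries. Along this measure the libraries ran, in falling order, UtyGT 15, UtyGT 11, UtyGT 31, WT 31, WT 15 and WT 11, with the 2 libraries of number 31 next to each other.

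Another measure, likewise a description and chosen after its values were seen, set genes of a later peak against Nr1d1 within each library, centred on the mean of the 6. Ciart minus Nr1d1 was 0.02, 0.32 and 0.03 in UtyGT 11, 15 and 31, against −0.47, −0.54 and 0.64 in WT 11, 15 and 31. Per2 minus Nr1d1 was 0.08, 0.16 and −0.12 in UtyGT 11, 15 and 31, against −0.31, −0.14 and 0.33 in WT 11, 15 and 31. WT 31 was the highest library in both, and WT 11 and WT 15 the lowest. Per1 minus Nr1d1 was likewise highest in WT 31 (0.34) and lowest in WT 15 (−0.49), whereas Dbp minus Nr1d1 was highest in UtyGT 15 (0.51) and stood at 0.07 in WT 31. Hence the order of the libraries changed with the genes compared: WT 31 was lower than the UtyGT libraries when Arntl was the measure and above them when Ciart or Per2 was set against Nr1d1. No time of day was available to place a library on the cycle.

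**Figure D4:**
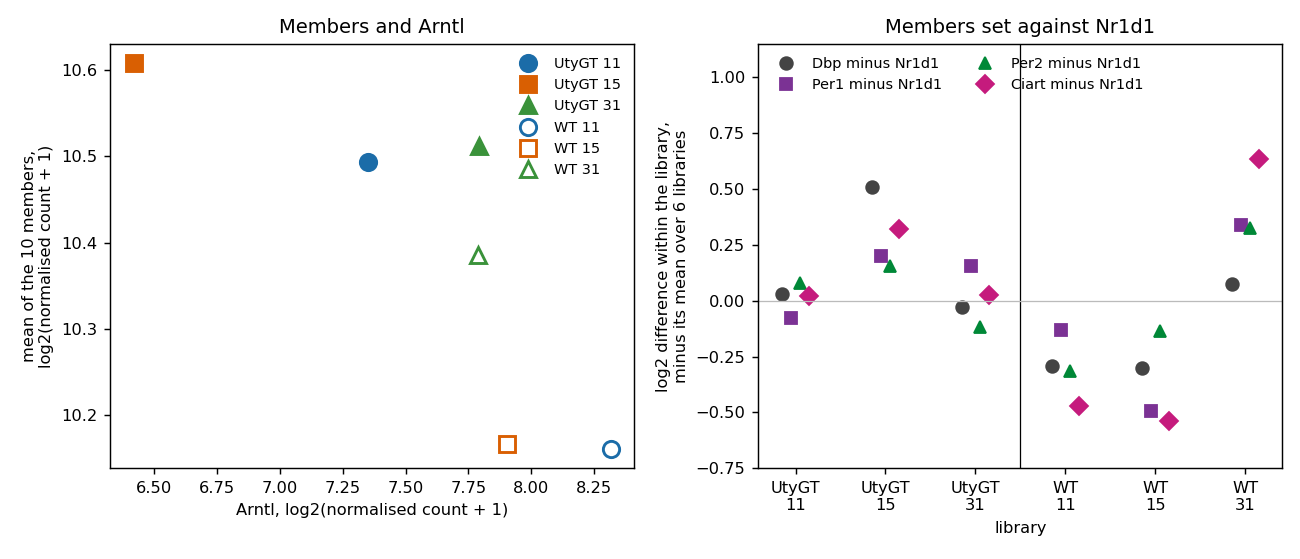
Left, average of the 10 genes (vertical axis) against Arntl (horizontal axis), both as log2(normalised read count + 1), with 1 point per library. Right, log2 difference of Dbp, Per1, Per2 and Ciart from Nr1d1 within each library, centred on the mean of the 6 libraries. UtyGT 15 is at the upper left of the left panel and WT 11 at the lower right, and WT 31 holds the highest Ciart minus Nr1d1, 0.64.

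Differences between the numbers 11, 15 and 31, with the group as a covariate, were a comparison that had not been used to select the genes. By a limma F test over all genes, 0 of the 10 were called, against 4.79% of the 16202 genes, and 0 of the 10 had an unadjusted p below 0.05, against 9.57%. edgeR and DESeq2 also called 0 of the 10. Of the 18 other clock genes, limma likewise called 0, with 1 at an unadjusted p below 0.05, which was Npas2, and edgeR and DESeq2 called 0. Without WT 31, number 31 was the single library UtyGT 31, and the call of Arntl by limma in that fit is not read. The lowest adjusted p by limma were 0.856 for Per1 and 0.970 for Ciart. Number 31 was above number 15 by 0.42 (SE 0.19) for Per1 and by 0.46 (SE 0.29) for Ciart, and above number 11 by 0.52 (SE 0.29) for Ciart. For Ciart the adjusted p by limma was 0.0602 without UtyGT 31, the lowest over 13 alternatives. In that fit number 31 was the single library WT 31, the highest for Ciart, and its spread was taken from numbers 11 and 15. Nr1d1 had differences between numbers of −0.06, −0.03 and 0.02 (SE 0.13), and Per3 of 0.03, 0.0040 and −0.02 (SE 0.14), for 15 minus 11, 31 minus 11 and 31 minus 15. With 2 libraries per number these errors leave room for differences of the size seen between the groups.

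The genes whose pattern over the 6 libraries was most like the average of the 10 were looked for among 12217 genes with a mean of at least 50, by the root mean square distance of centred log2 values. That average had a size of 0.17 on this measure, and the median distance of all genes was 0.23. The nearest were Lmbr1l (0.032), 1110059G10Rik (0.045), Cacnb1 (0.045), Zscan25 (0.052) and 0610009E02Rik (0.056). Of the clock-related genes on the lists, the nearest were Usp2 at rank 7 (0.059), Cry1 at rank 29 (0.079) and Cry2 at rank 66 (0.092). The farthest were Cdkn1a at rank 11270 (0.48), Nfil3 at rank 11390 (0.53) and Arntl at rank 11631 (0.74). Of the 10 themselves, Per3 (0.087), Per2 (0.095) and Tef (0.099) were nearest to their own average and Ciart (0.29) farthest. Nearest to the mirror image were Pls3 (0.043), Krt222 (0.044), Sh3d19 (0.055), Tnfaip8 (0.055) and Gm42908 (0.059), and Clock was at rank 29 (0.085). The other activators were not near it, with Npas2 at rank 1805 (0.17), Arntl2 at rank 7425 (0.26) and Arntl at rank 11348 (0.47). Nfil3 was at rank 4949 (0.22), and the median distance of all genes to the mirror image was 0.23.

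Markers of other cell types moved over the same libraries. The 4 atrial markers Myl7, Sln, Myl4 and Nppa summed to 665, 735 and 1187 in UtyGT 11, 15 and 31, against 2130, 3058 and 1075 in WT 11, 15 and 31, so that WT 11 and WT 15, the libraries with the lowest average of the 10 genes, had the highest atrial sums. The 4 erythroid markers ran between 490 and 960 in UtyGT and between 604 and 1189 in WT, with WT 11 and WT 15 again highest. The 4 fibroblast markers ranged between 662 and 1949 in UtyGT and between 618 and 2974 in WT, and the leukocyte sums, given above, were lowest in both number 15 libraries. The 4 endothelial and 4 mural markers summed to 617 to 658 and 596 to 635 in UtyGT, against 495 to 1092 and 558 to 1011 in WT, and were highest in WT 11. The part of these cell types in the values of the 10 genes was not tested.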

How the data were processed

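Libraries of nuclear RNA were made with a stranded low-input kit (SMARTer Pico) without selection of polyadenylated RNA. Per the study's methods and the submitters' processing notes, the authors used CASAVA 1.4, STAR 2.5.1b on GRCm38, featureCounts 1.6.0 and DESeq2 1.22.2, and no source used here says whether counting took account of strand. The deposited signal is a read count divided by a size factor per library, and 100% of values came out as whole reads within 0.0001. The deposited log2 fold changes, Wald score and p-values of the authors (WT over UtyGT) were not used.

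The groups were compared with limma 3.58.1 (limma-trend, R 4.3.3) on log2(value + 1), for 16202 genes with a mean of at least 10, two-sided, with Benjamini-Hochberg adjustment at 0.05. Numbers were compared by limma F test with the group as covariate. Alternatives were edgeR 4.0.16 and DESeq2 1.42.0 on recovered reads, a pseudocount of 5, no filter, a mean of at least 50, TMM and quantile scaling, the number as a block, a second deposited table with 4 libraries (11 and 31), and each library left out. The name that the submitters gave to the 4-library table refers to a day effect. The fits were checked on simulated data. Libraries of equal number were taken as pairs. Their deviations within the group correlated over genes at 0.25, 0.80 and 0.41 for 11, 15 and 31. When crossed, UtyGT 11 with WT 31 gave 0.41 and UtyGT 31 with WT 11 gave 0.73. The correlations therefore do not settle the pairs of 11 and 31. No label calls replicates separate animals, so p-values measure a spread between libraries that may be technical. Libraries of 1 group differed beyond sampling noise (chi-square per degree of freedom 17.0 to 53.7).

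The genes and lists were chosen with earlier results of these data known. Named by rule were the 10 genes, listed genes called in either fit, Arntl, Clock, Npas2, Nfil3 and Cry1, the 5 genes nearest the average and the 5 nearest its mirror, overlapping genes of the opposite strand, and Uty. Other listed genes, and Camta1, were named after their values were seen. Coordinates and exon lengths came from GENCODE M21 (GRCm38). Gm17597 shares 193 exon bases with Tef and had between 4.70 and 11.5. C920021L13Rik lies opposite Ciart and 1600010M07Rik opposite Wee1, with 0 shared exon bases.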

Additional observations from a re-analysis of the deposited data

Results flagged for a closer look

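Ciart and Per2 were singled out because the pair of number 31 had the opposite sign to the pairs of numbers 11 and 15, with each of the 3 at least 0.1 from 0. Tef and Per3, at −0.04 each with number 31, had the same order of signs within that limit. For Ciart the log2 difference of UtyGT over WT was −0.3412 between the libraries of number 31, against 0.51 with number 11 and 1.00 with number 15. For Per2 it was −0.1748 with number 31, against 0.41 with number 11 and 0.44 with number 15. Each value rests on 1 library of each group, and the difference between the numbers was not tested for these gaps. The pairing of libraries by the numbers 11 and 31 is not settled by correlations over genes.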

How the results depend on the processing

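The log2 fold change of UtyGT over WT stayed above 0 for each of the 10 genes in all 17 alternatives, and 0 of the 10 were called in any of them (lowest adjusted p = 0.851, by limma without WT 15). The median over the 10 genes ranged between 0.17 and 0.34. Single genes ranged most for Ciart (0.09 to 0.74), Per1 (0.09 to 0.52), Dbp (0.26 to 0.58) and Per2 (0.13 to 0.38). Arntl ranged between −1.12 and −0.43 and Nfil3 between −0.71 and −0.20, alternatives chosen after seeing the data. Leaving out WT 31 brought 7 of the 10 to an unadjusted p below 0.05 by limma, against 1.72% of all genes in that fit, and 2 of the 10 had one with all libraries, against 1.2%. The genes were selected on this contrast, so nothing is read from that count. The count of genes with every UtyGT library above every WT library, whose alternatives were chosen after seeing the data, was 4 and fell to 2 (Dbp and Wee1) with quantile scaling, against 3.03% of all genes. It ranged between 4 and 9 when 1 library was left out, against 5.38% to 11.7% of all genes. The 9 was reached without WT 31, against 7.18% of all genes. The difference of the groups in the average of the 10 genes minus Arntl ranged between 0.70 and 1.43, the lowest without UtyGT 15 and the highest without UtyGT 31. In the comparison of the numbers, 0 of the 10 were called in all 13 alternatives. Of the 26 listed clock and clock-controlled genes tested, 0 were called between the groups in 17 alternatives. Between the numbers, 0 were called in the alternatives that kept all 6 libraries. With 1 library left out, 1 number had a single library, and the call of Arntl without WT 31 is not read.

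With the replicate block, which pairs libraries of equal number, 0 of the 10 genes were called by limma, edgeR or DESeq2, the median log2 fold change was 0.24, and the block changed no call among the 10 genes, the 26 listed genes, Uty, Sphk2, Thra and the 10 genes named by likeness, by limma, edgeR or DESeq2. Depth limits Wee1 most, at 122 to 215 reads per library, and 3 libraries a group limit every comparison.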
